A study of Mus musculus with 12 samples.

Results

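Horizontal cells are laterally connecting interneurons of the outer retina, which receive glutamate from rods and cones and feed inhibition back onto them. They arise from progenitors that express Foxn4 and Ptf1a, and transcription factors of the ONECUT family together with LHX1 direct their genesis and their settling in the outer part of the inner nuclear layer. In those progenitors OTX2 and ONECUT1 act together on an enhancer of the thyroid hormone receptor gene Thrb, while mature horizontal cells keep ONECUT factors and LHX1 and lack OTX2. The genes described here are Lhx1, Onecut1, Onecut2 and Calb1, which were chosen as known horizontal cell genes and found by matching gene identifiers to mouse symbols. All 4 were counted among 54146 genes, and all 4 passed the filter on low counts, which kept 18628 genes for testing.

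Whole retinas of 12 mice on a 129/SV background were compared, with 1 library from 1 eye of each mouse and 3 mice in each condition. The cKO mice carried the Crx-CreERT2 transgene and Otx2 flox/flox alleles, received a single dose of tamoxifen at P30 and were collected at P32, P34 or P38, which is 2, 4 or 8 d later. Control mice of the Crx line were collected at P30. The labels attach the tamoxifen protocol to every sample, so whether the controls were injected is not settled by them. Cre was driven by the promoter of Crx, a gene of photoreceptors (PRs), and horizontal cells were therefore not the cells in which the allele was meant to be deleted. No control mice of P32 to P38 were analysed here, so age, tamoxifen and deletion cannot be told apart in any comparison with P30.

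Counts on genes ranged from 29701483 to 60145034 per library. Here CPM is the count of a gene per 1000000 counts on tested genes after scaling between libraries (TMM, edgeR). Otx2 itself had 293 to 328 CPM in the controls and 307 to 377 in the cKO mice, a level that covers the whole transcript and does not single out the floxed exon. P32 mouse 4 stood apart from the other libraries on the first principal component of all tested genes, at -89.6 against -40.4 to 42.5 for the other 11 mice. Member fold changes and list counts that rest on P32 are therefore also given without it, from edgeR. This was done where they moved by over 1.5 times, turned sign or bear on a call. A gene was called changed when edgeR's quasi-likelihood test put its p at 0.05 or lower after Benjamini-Hochberg adjustment over all tested genes, and its log2 fold change was 0.5 or more in size. In whole retina, fewer cells of a type and less RNA per cell cannot be told apart.

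On the GRCm38 assembly, Lhx1 (ENSMUSG00000018698) lies on the minus strand of chromosome 11 from 84518284 to 84525535. Onecut1 (ENSMUSG00000043013) lies on the plus strand of chromosome 9 from 74861921 to 74891781 and Calb1 (ENSMUSG00000028222) on the plus strand of chromosome 4 from 15881264 to 15908064. Of the 4113 exon bases of Onecut1, 2171 (52.8%) are also exonic in the noncoding gene Gm20649 on the same strand in the GENCODE M21 annotation. Gm20649 had 0 counts in all 12 libraries, and a read that falls within both genes is assigned to neither by union counting, so the Onecut1 values are undercounts of the gene where the Ensembl annotation used for counting holds the same overlap, which was not checked here. The other 3 members share no exon base with another gene on their own strand.

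The sequences just upstream of Onecut1 and Lhx1 are shown because the levels of these genes varied together across the mice, as described further on. Many other genes also varied with Onecut1. Lhx1, Onecut1 and Calb1 were looked up among the RefSeq promoter sequences used here (GRCm38.p6), and Calb1 had no entry. Onecut2 was not looked up. The 250 bases before each RefSeq start are printed 5′ to 3′ on the strand of the gene. They lie at chr9:74861671-74861920 (plus strand) for Onecut1 and at chr11:84525535-84525784 (minus strand) for Lhx1. The Lhx1 window includes base 84525535, the outermost base of the gene as placed above. Capitals mark the letters TGACGTC or, on the other strand, GACGTCA, which are 7 bases of the cAMP response element.
Onecut1: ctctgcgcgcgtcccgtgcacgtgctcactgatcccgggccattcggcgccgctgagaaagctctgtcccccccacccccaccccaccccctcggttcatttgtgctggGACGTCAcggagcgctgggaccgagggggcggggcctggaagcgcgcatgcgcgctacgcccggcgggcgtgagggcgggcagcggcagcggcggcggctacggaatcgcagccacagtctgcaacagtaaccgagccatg
Lhx1: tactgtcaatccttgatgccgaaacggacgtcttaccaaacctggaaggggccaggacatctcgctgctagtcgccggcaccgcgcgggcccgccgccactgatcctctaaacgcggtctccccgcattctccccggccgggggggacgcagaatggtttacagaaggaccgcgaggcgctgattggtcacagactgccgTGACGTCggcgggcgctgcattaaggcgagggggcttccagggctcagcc

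Both windows were rich in G and C, at 71.6% for Onecut1 and 64.8% for Lhx1, levels reached by 7.35% and 17.7% of the 32851 windows of the same length. Each held 1 match to TGACGTC on either strand, a motif picked after the sequences had been read, and 2.78% of all windows held it. Neither held TAATCC, the core that OTX2 and CRX prefer, or ATTGAT, the core of ONECUT sites, on either strand, against 6.25% and 6.72% of all windows. These matches describe the letters only.

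Lhx1 encodes a LIM homeodomain factor that places horizontal cells in their layer. Its level in P30 mice 1, 2 and 3 was 5.63, 6.50 and 5.56 CPM. At P32, mice 4, 5 and 6 had 4.26, 5.51 and 6.73 CPM. At P34, mice 7, 8 and 9 had 8.81, 5.88 and 9.04 CPM, and at P38, mice 10, 11 and 12 had 6.38, 7.58 and 7.09 CPM. P34 mice 7 and 9 were thus the highest of the 12, P34 mouse 8 lay among the controls, and each cKO group overlapped the controls. The means were 5.90 ± 0.526 CPM at P30, 5.50 ± 1.23 at P32, 7.91 ± 1.76 at P34 and 7.02 ± 0.601 at P38 (SD, n = 3 each), resting on 142 to 357 counts per mouse. Relative to P30, the P32 mice had a log2 fold change of -0.10 for Lhx1 (SE 0.20, adjusted p = 0.869), the P34 mice of 0.42 (SE 0.20, adjusted p = 0.506) and the P38 mice of 0.25 (SE 0.20, adjusted p = 0.861). With each mouse left out in turn, these values ran from -0.27 to 0.05, from 0.30 to 0.60 and from 0.19 to 0.33.

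Onecut1 encodes the factor on which the genesis of most horizontal cells depends, and it was the least abundant member. In P30 mice 1, 2 and 3 it had 0.394, 0.707 and 0.743 CPM. The P32 mice 4, 5 and 6 had 0.120, 0.362 and 0.690 CPM. The values of P34 mice 7, 8 and 9 were 1.05, 1.03 and 1.39 CPM, and those of P38 mice 10, 11 and 12 were 1.19, 1.60 and 1.36 CPM. All 6 mice of P34 and P38 lay above all 6 mice of P30 and P32. These values rest on few reads, from 4 counts in mouse 4 to 68 in mouse 11, and the highest level was 13.3 times the lowest. The group means were 0.615 ± 0.192 CPM at P30, 0.391 ± 0.286 at P32, 1.16 ± 0.202 at P34 and 1.38 ± 0.204 at P38 (SD, n = 3 each). Relative to P30, the P32 mice had a log2 fold change of -0.61 for Onecut1 (SE 0.46, adjusted p = 0.701), the P34 mice of 0.92 (SE 0.44, adjusted p = 0.498) and the P38 mice of 1.18 (SE 0.43, adjusted p = 0.847), and the 95% interval at P38 ran from 1.18-fold to 4.38-fold. The P32 value was -0.20 without mouse 4 and -1.29 without mouse 6.

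Onecut2 (ENSMUSG00000045991, plus strand of chromosome 18, 64340020 to 64400987) encodes a second ONECUT factor that overlaps with ONECUT1 in function. Its values in P30 mice 1, 2 and 3 were 8.00, 8.82 and 9.95 CPM. P32 mice 4, 5 and 6 had 7.53, 7.91 and 8.31 CPM. P34 mice 7, 8 and 9 had 10.9, 10.3 and 13.9 CPM, and P38 mice 10, 11 and 12 had 9.46, 13.7 and 10.2 CPM. The P34 values all exceeded those of P30 and P32, whereas at P38 mouse 10 lay within the range of the controls. The means were 8.92 ± 0.983 CPM at P30, 7.91 ± 0.388 at P32, 11.7 ± 1.91 at P34 and 11.1 ± 2.29 at P38 (SD, n = 3 each), from 251 to 586 counts per mouse. Relative to P30, the P32 mice had a log2 fold change of -0.17 for Onecut2 (SE 0.17, adjusted p = 0.738), the P34 mice of 0.39 (SE 0.17, adjusted p = 0.449) and the P38 mice of 0.32 (SE 0.17, adjusted p = 0.847). Without mouse 3 the P32 value was -0.089, without mouse 9 the P34 value was 0.24, and without mouse 11 the P38 value was 0.14.

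Calb1 encodes calbindin, a calcium-binding protein that marks horizontal cells and also subsets of amacrine and ganglion cells in the mouse retina. P30 mice 1, 2 and 3 had 112.5, 101.1 and 106.7 CPM. The P32 values of mice 4, 5 and 6 were 139.7, 102.0 and 115.9 CPM. At P34, mice 7, 8 and 9 had 162.4, 100.9 and 127.9 CPM, and at P38, mice 10, 11 and 12 had 112.3, 99.6 and 100.8 CPM. P34 mouse 7 and P32 mouse 4 were the highest, and every cKO group overlapped the controls. The means were 107 ± 5.70 CPM at P30, 119 ± 19.1 at P32, 130 ± 30.9 at P34 and 104 ± 7.04 at P38 (SD, n = 3 each), from 2969 to 7133 counts per mouse. Relative to P30, the P32 mice had a log2 fold change of 0.16 for Calb1 (SE 0.16, adjusted p = 0.741), the P34 mice of 0.29 (SE 0.16, adjusted p = 0.559) and the P38 mice of -0.03 (SE 0.16, adjusted p = 0.983), with a 95% interval at P38 of 0.767-fold to 1.24-fold. The P32 value was 0.03 without mouse 4 and 0.26 without mouse 5, and the P34 value was 0.092 without mouse 7 and 0.44 without mouse 8.

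**Figure D1:**
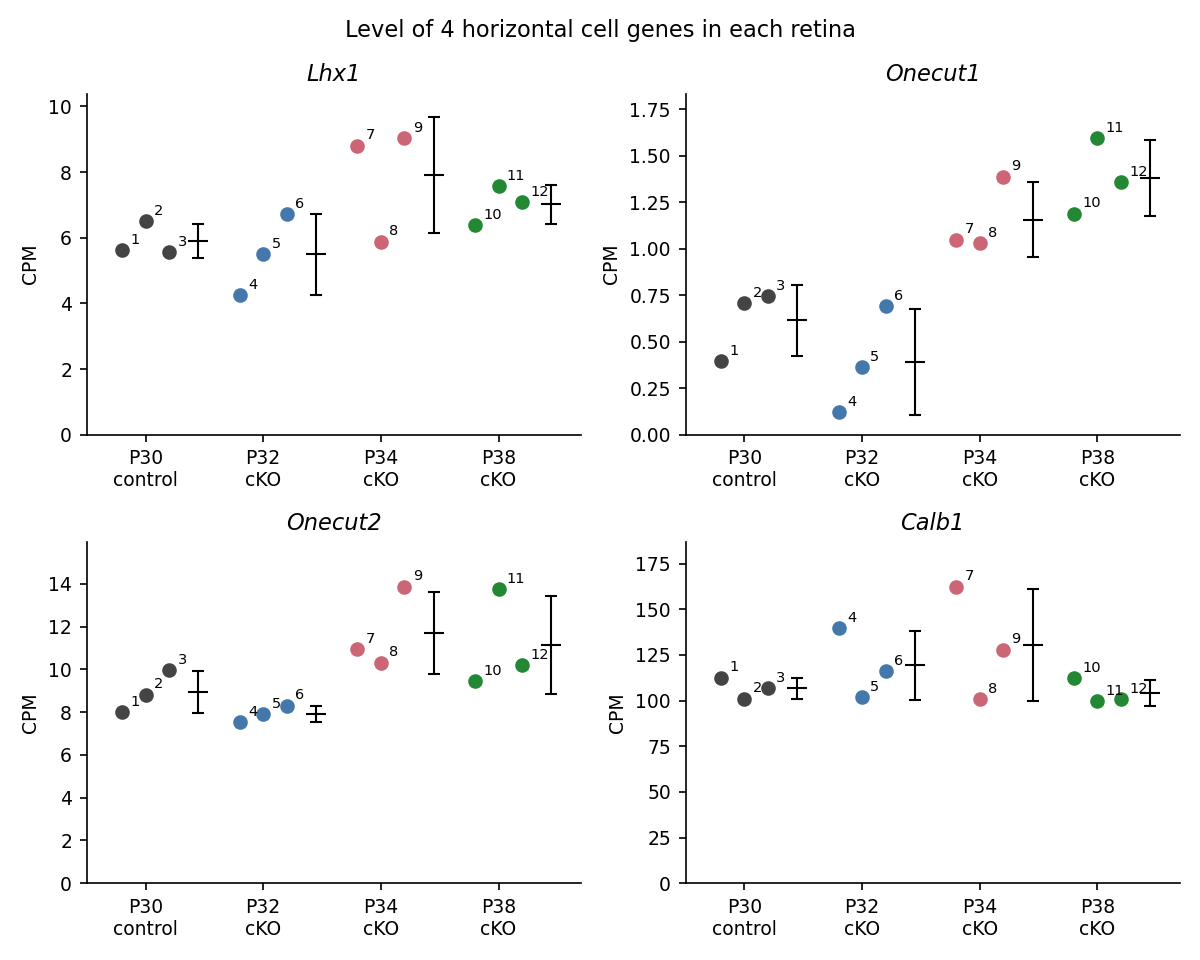
Level of Lhx1, Onecut1, Onecut2 and Calb1 (vertical axes, CPM, starting at 0) in each of 12 retinas, grouped by condition (horizontal axes). Points are mice with their numbers, and the black marks give the mean ± SD of 3 mice. Onecut1 in the P34 and P38 mice sits between 1.03 and 1.60 CPM, above all P30 and P32 mice, while the groups overlap for Calb1.

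Levels can be compared between members only per length of exon. At P30, Calb1 was the most abundant member with 22.0 ± 1.18 CPM per kb of exon, followed by Lhx1 with 1.45 ± 0.129, Onecut2 with 0.550 ± 0.0606 and Onecut1 with 0.149 ± 0.0466 (SD, n = 3). Over the 1942 exon bases of Onecut1 that no other gene shares in GENCODE M21, its level was 0.316 ± 0.0987 CPM per kb, which was still the lowest. By mean CPM the conditions ranked P34, P38, P30, P32 for both Lhx1 and Onecut2, P38, P34, P30, P32 for Onecut1, and P34, P32, P30, P38 for Calb1. No member was called between any neighbouring conditions in these orders. The widest spread from the lowest to the highest mouse after Onecut1 was 2.12 times for Lhx1, followed by 1.84 times for Onecut2 and 1.63 times for Calb1.

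The comparisons with P30 asked whether the horizontal cell genes moved after the loss of Otx2 from PRs. At P32, 0 of the 4 members were called by edgeR, against 0% of all tested genes, and 0 had an unadjusted p of at most 0.05 with a log2 fold change of at least 0.5, against 2.90% of all genes. DESeq2 with the same thresholds also called 0 members, against 0.134% of genes. Here and below, DESeq2 shares are of the genes to which it gave an adjusted p, between 15362 and 18610 genes. No member had all its P32 values above all its P30 values, against 5.26% of genes. The log2 fold changes of Lhx1, Onecut1 and Onecut2 were negative and that of Calb1 was positive, although that of Lhx1 turned to 0.05 without mouse 4.

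At P34, edgeR and DESeq2 each called 0 of the 4 members relative to P30, against 0.660% and 1.98% of all genes. With the unadjusted p, 0 members passed both limits, against 6.27% of genes. Onecut2 came nearest (unadjusted p = 0.0389, adjusted p = 0.449 in edgeR), with a log2 fold change of 0.39 that lay under the limit. In 2 members, Onecut1 and Onecut2, every P34 mouse exceeded every control, against 10.4% of all genes. All 4 members had positive log2 fold changes at P34.

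At P38, edgeR called 0 of the 4 members relative to P30, against 0% of all genes, and DESeq2 called 0, against 0.242%. Onecut1 passed both limits with the unadjusted p (0.0187, edgeR), against 3.46% of genes, and was the one member whose P38 mice all exceeded the controls, against 8.23% of genes. Without P30 mouse 1, in which Onecut1 was lowest among the controls, its log2 fold change at P38 was 0.93 (unadjusted p = 0.0777 in edgeR, adjusted p = 1).

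When the 9 cKO mice were taken as a single group against P30, the log2 fold changes were 0.68 for Onecut1, 0.21 for Lhx1, 0.20 for Onecut2 and 0.14 for Calb1. With each mouse left out in turn, they ran from 0.43 to 0.82 for Onecut1, from 0.14 to 0.28 for Lhx1, from 0.13 to 0.28 for Onecut2 and from 0.074 to 0.18 for Calb1. edgeR called 0 of the 4 members, against 0.0537% of all genes, with 0 at the unadjusted p, against 1.88%, and DESeq2 called 0, against 0.248%. Exact two-sided permutation tests on log2 CPM gave p = 0.568 for Onecut1, 0.386 for Lhx1, 0.395 for Onecut2 and 0.491 for Calb1 (9 against 3 mice). For Onecut1, 6 of the 9 cKO mice lay above all controls and 2 lay below all of them, so the pooled group held both the lowest and the highest levels. For Calb1, 4 cKO mice lay above and 3 below all controls.

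**Figure D2:**
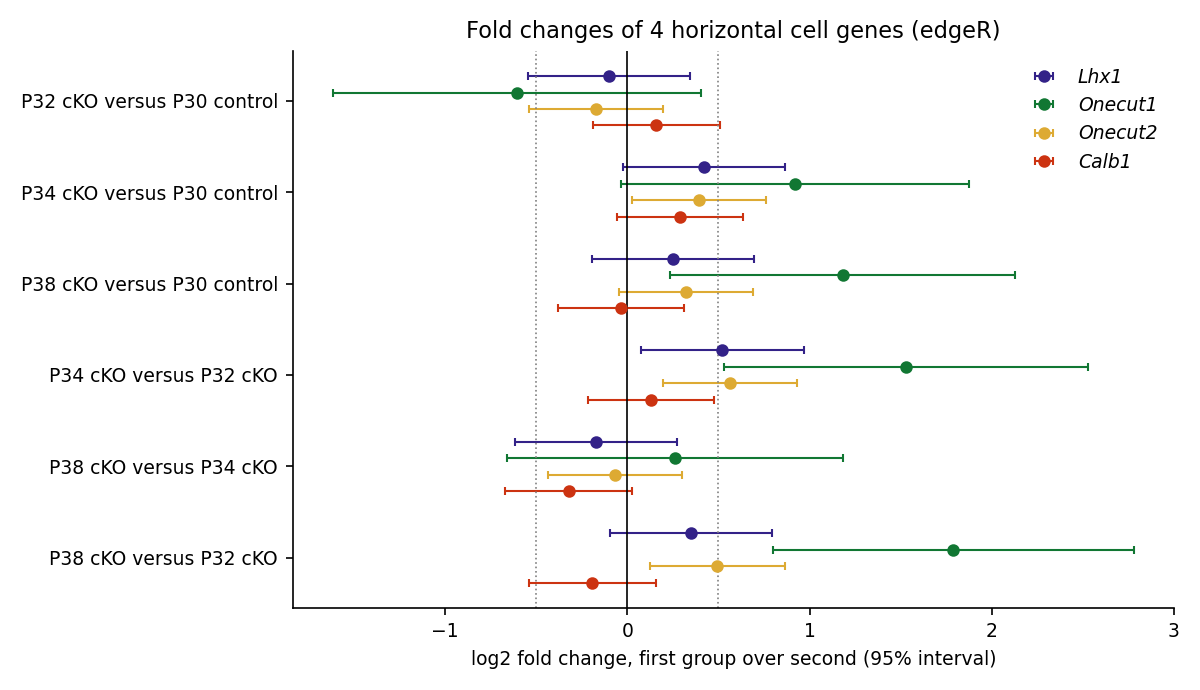
Log2 fold changes of Lhx1, Onecut1, Onecut2 and Calb1 (horizontal axis) in 6 comparisons between conditions (vertical axis), from edgeR with 3 mice per condition. Points are estimates, bars are 95% intervals, and dotted lines mark the limit of 0.5 in both directions. The intervals of Onecut1 are the widest, and those of Lhx1, Onecut1 and Onecut2 lie above 0 between P34 and P32.

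The ages of cKO mice were also compared with each other, which sets tamoxifen-injected mice against tamoxifen-injected mice. Relative to P32, Onecut1 at P34 had a log2 fold change of 1.53 (SE 0.46, unadjusted p = 0.00599, adjusted p = 0.0973 in edgeR). For Onecut2 the value was 0.56 (SE 0.17, unadjusted p = 0.00623, adjusted p = 0.0973), and for Lhx1 it was 0.52 (SE 0.20, unadjusted p = 0.0256, adjusted p = 0.139). Calb1 had a value of 0.13 (SE 0.16, adjusted p = 0.615). The ONECUT genes therefore came closest to the threshold in this comparison without passing it in edgeR.

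edgeR called 0 of the 4 members between P34 and P32, against 0.242% of all genes. DESeq2 called 2 of them, Onecut1 (adjusted p = 0.0216) and Onecut2 (adjusted p = 0.0285), with the same fold changes to the second decimal, against 8.65% of genes. DESeq2 was not rerun without mouse 4. With edgeR's unadjusted p, 3 of the 4 members passed both limits, against 14.4% of genes, and Onecut1 and Onecut2 were higher in every P34 mouse than in every P32 mouse, against 14.8%. Leaving out P32 mouse 6, in which Lhx1 and Onecut1 were the highest of their group, edgeR called Onecut1 (log2 fold change 2.22, adjusted p = 0.0155) and Lhx1 (0.69, adjusted p = 0.0484), and the share of all genes called was then 14.3%. Leaving out P32 mouse 4, the log2 fold change was 1.12 for Onecut1, 0.37 for Lhx1, 0.53 for Onecut2 and 0.26 for Calb1, and none of these was called in edgeR, against 0.226% of genes.

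Between P38 and P32, the log2 fold change was 1.79 for Onecut1 (SE 0.45, unadjusted p = 0.00203, adjusted p = 0.114 in edgeR), with a 95% interval of 1.74-fold to 6.88-fold. Onecut2 had a value of 0.49 (SE 0.17, adjusted p = 0.139), Lhx1 of 0.35 (SE 0.20, adjusted p = 0.310) and Calb1 of -0.19 (SE 0.16, adjusted p = 0.468). edgeR called 0 of the 4 members, against 0% of all genes, and DESeq2 called Onecut1 (adjusted p = 0.00900), against 6.05% of genes. Onecut1 also passed both limits with edgeR's unadjusted p, against 11.9% of genes. Every P38 mouse exceeded every P32 mouse for Onecut1 and Onecut2, against 13.3% of genes. Without P32 mouse 6, edgeR called Onecut1 (log2 fold change 2.48, adjusted p = 0.0223) together with 10.2% of all genes. Without P32 mouse 4 the log2 fold change was 1.38 for Onecut1, 0.46 for Onecut2, 0.20 for Lhx1 and -0.06 for Calb1, and none was called in edgeR, against 0.00527% of genes. Over all mice left out in turn, the value ran from 0.31 (without mouse 11) to 0.60 for Onecut2, from 0.20 to 0.52 for Lhx1 and from -0.29 to -0.06 for Calb1.

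From P34 to P38, the log2 fold changes were -0.17 for Lhx1, 0.26 for Onecut1, -0.07 for Onecut2 and -0.32 for Calb1, each with an adjusted p of 1 in edgeR. With each mouse left out in turn, these values ran from -0.35 to -0.05 for Lhx1, from 0.14 to 0.42 for Onecut1, from -0.25 to 0.08 for Onecut2 and from -0.48 to -0.13 for Calb1. The 95% interval of the difference was 0.628-fold to 1.02-fold for Calb1 and 0.738-fold to 1.23-fold for Onecut2. edgeR and DESeq2 called 0 of the 4 members, against 0.199% and 0.774% of all genes, and 0 passed with the unadjusted p, against 3.81%. No member was higher in every P38 mouse than in every P34 mouse, against 5.36% of genes.

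**Figure D3:**
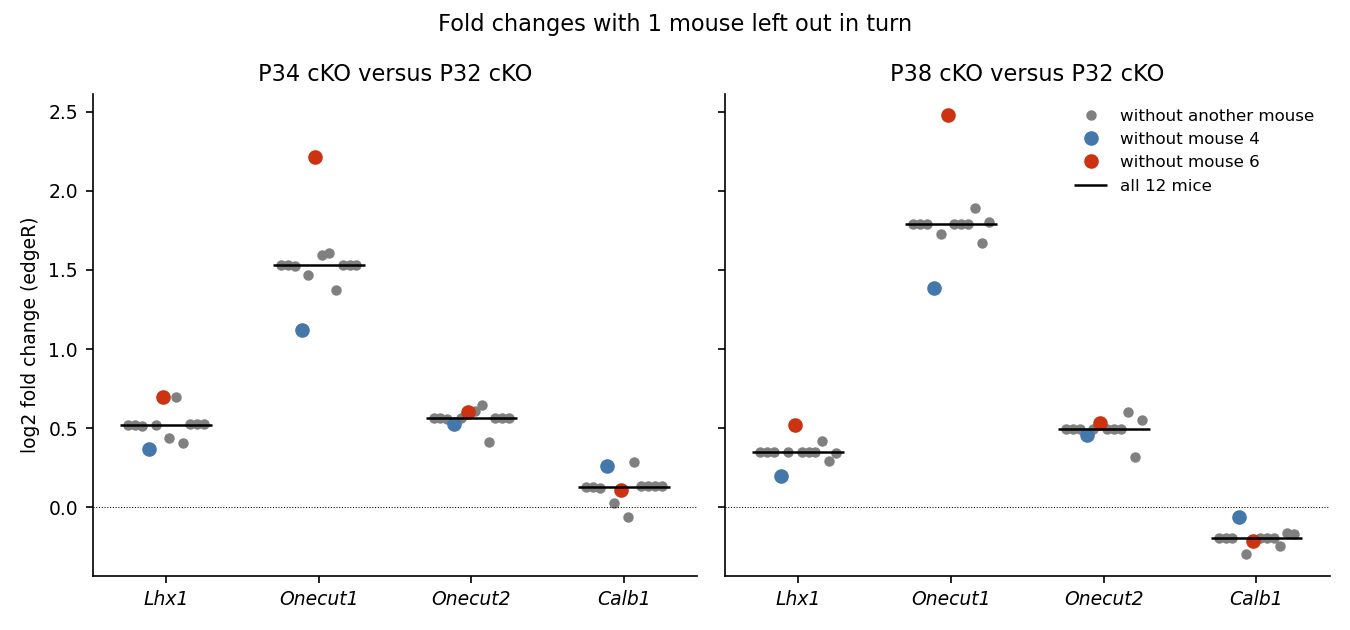
Log2 fold changes of the 4 genes (vertical axes) for P34 against P32 (left) and P38 against P32 (right), with each of the 12 mice left out in turn. Black lines give the value with all 12 mice and points the values without 1 mouse, with P32 mice 4 and 6 in colour. Onecut1 ranges from 1.12 to 2.22 on the left and from 1.38 to 2.48 on the right, and its lowest and highest points are those without mouse 4 and without mouse 6.

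A wider list of 24 genes used by horizontal cells, many of which amacrine, ganglion or glial cells also use, set the members beside other genes of the same cell. Of these, 22 were tested. Ptf1a and Foxn4, the progenitor factors, had at most 3 counts in any mouse and were not tested. edgeR called 0 of the 22 in each of the 7 comparisons. With the unadjusted p and the limit on fold change, 0 of the 22 passed at P32, 2 at P34 (Onecut3 and Nefm) and 1 at P38 (Onecut1) relative to P30, beside 2.90%, 6.27% and 3.46% of all tested genes. DESeq2 called 0 of the 22 in each comparison with P30.

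Among the other transcription factors, Onecut3, the remaining ONECUT gene, had a mean of 4.33 ± 0.548 CPM at P30 and 6.92 ± 1.22 at P34 (SD, n = 3). Its log2 fold change was 0.67 in edgeR (adjusted p = 0.338) and 0.68 in DESeq2 (adjusted p = 0.146). The paper, from its own DESeq2 analysis, lists Onecut3 among the genes upregulated 4 d after cKO. All 3 P34 mice exceeded the controls for Onecut3. The same held for 7 of the 22 tested genes, namely Onecut1, Onecut2, Onecut3, Prox1, Gja10, Gad1 and Nefh, beside 10.4% of all tested genes. Tfap2a, an AP-2 factor shared by amacrine and horizontal cells, had 33.4 ± 5.03 CPM at P38 against 40.0 ± 4.11 at P30 (log2 fold change -0.26, unadjusted p = 0.0486, adjusted p = 0.847 in edgeR). Among the neurofilament genes, the log2 fold change from P30 to P34 was 0.50 for Nefm (adjusted p = 0.339), 0.46 for Nefl (adjusted p = 0.403) and 0.45 for Nefh (adjusted p = 0.300). Nefl had a value of 0.42 at P38 (adjusted p = 0.847). Neurofilaments fill the axons of horizontal cells and also those of ganglion cells.

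Relative to P30, the median log2 fold change of the 22 tested genes was -0.07 in P32, 0.27 in P34 and 0.08 in P38 mice, where the medians over all tested genes were -0.01, -0.00 and -0.01. Of the 22, 9 had a positive value in P32 mice, 19 in P34 mice and 14 in P38 mice, where 48.5%, 49.8% and 48.2% of all tested genes were positive. Without mouse 4 the P32 median was 0.01 and 13 of the 22 were positive. From P34 to P38, 2 of the 22 had a positive value and the median was -0.17, where 49.3% of all tested genes were positive with a median of -0.00. The list counts at the unadjusted p moved with single libraries: without P30 mouse 1, 0 of the 22 passed at P34 and 0 at P38, where 5.34% and 3.20% of all tested genes did. Without P32 mouse 4, 4 passed at P34 and 2 at P38, beside 7.05% and 4.32% of all tested genes, although mouse 4 belongs to neither side of those comparisons. All conditions share the filter on low counts, which then kept 18991 genes, the scaling and the spread in the fit. Which of these moved the counts was not tested.

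Between P34 and P32, 8 of the 22 genes passed edgeR's unadjusted p and the fold limit, beside 14.4% of all tested genes. All 8 were higher at P34. DESeq2 called 7, beside 8.65% of the 16443 genes with a DESeq2 adjusted p. Apart from Lhx1, Onecut1 and Onecut2 these 8 were Onecut3, Megf11, Gja10, Nefl and Nefm. Gja10 encodes connexin 57, a gap junction protein through which horizontal cells couple. Its values were 0.570, 1.21 and 1.70 CPM in P32 mice 4, 5 and 6 and 2.76, 2.33 and 2.84 CPM in P34 mice 7, 8 and 9, against 1.40, 2.16 and 1.81 CPM in P30 mice 1, 2 and 3. The P34 mice exceeded both other groups, and the log2 fold change was 1.17 against P32 (adjusted p = 0.0949 in edgeR, 0.0136 in DESeq2) and 0.56 against P30 (adjusted p = 0.574 in edgeR). Fold changes of Gja10 without mouse 4, its lowest mouse, are not given here. Megf11, whose product spaces horizontal cells in their mosaic, had a log2 fold change of 0.57 against P32 (adjusted p = 0.114 in edgeR). Without P32 mouse 4, 4 of the 22 genes passed at the unadjusted p between P34 and P32 in place of 8, and the share of all tested genes was then 7.38%. Between P38 and P32, 4 passed, namely Onecut1, Megf11, Gja10 and Nefl, DESeq2 called 2, namely Onecut1 and Gja10, and without mouse 4 the count at edgeR's unadjusted p was 3, beside 5.47% of all tested genes. With all mice, 11.9% of genes passed edgeR's unadjusted p in that comparison. DESeq2 called 6.05% of the 15362 genes with a DESeq2 adjusted p.

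**Figure D4:**
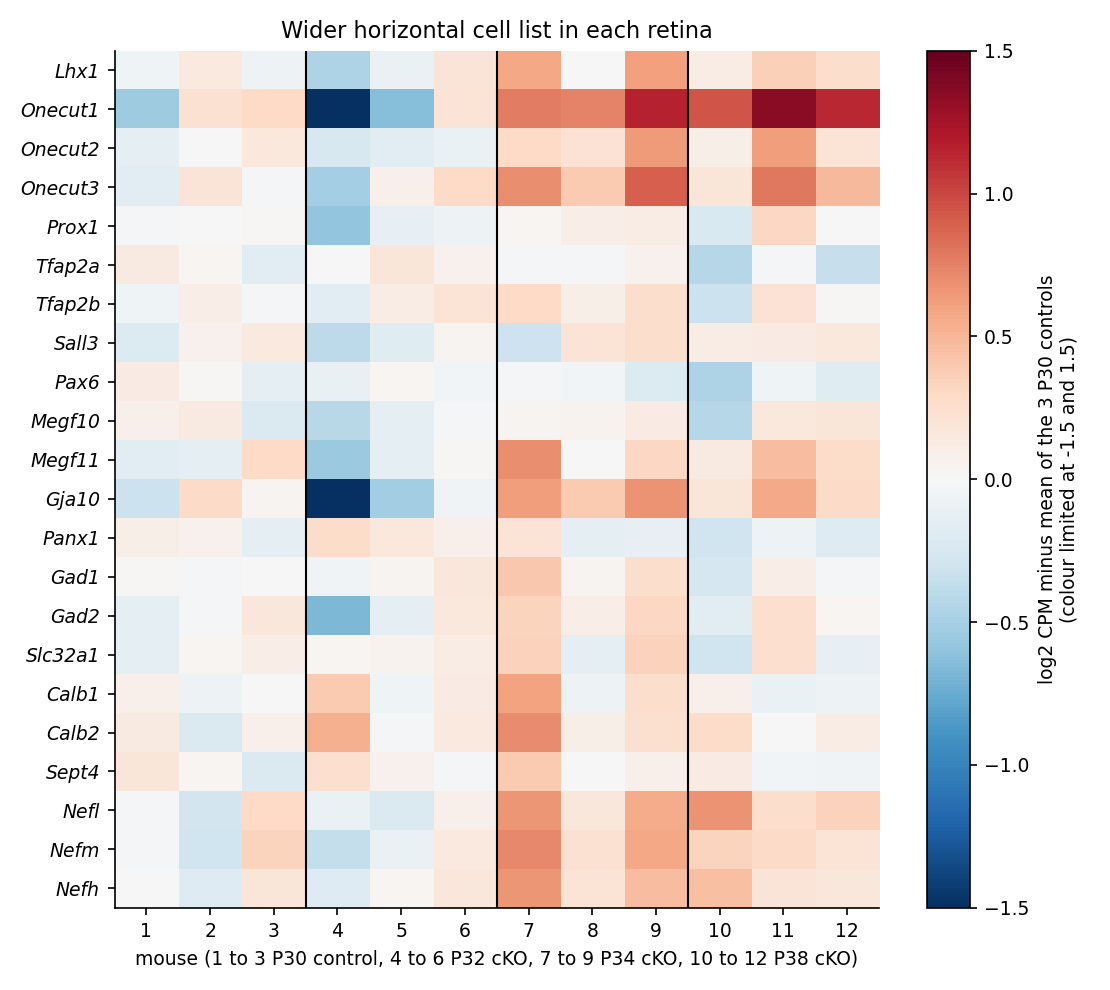
Log2 CPM of the 22 tested genes of the wider horizontal cell list (rows) in each of 12 mice (columns), as the difference from the mean of the 3 P30 mice, in colour with its scale ending at 1.5 in both directions. P32 mouse 4 is the lowest column for Lhx1, Onecut1, Onecut2, Onecut3 and Gja10, and P34 mice 7 and 9 are high for the ONECUT genes and the neurofilament genes. P38 mouse 11 is higher than mouse 7 for the ONECUT genes, and P38 mouse 10 has the highest Nefl.

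The 3 transcription factors varied together over the 12 mice. Over 12 mice, Pearson's r of log2 CPM was 0.818 between Onecut1 and Onecut2 (Spearman's rho 0.916), 0.821 between Lhx1 and Onecut1 (rho 0.797) and 0.779 between Lhx1 and Onecut2 (rho 0.804). From permutation tests, the Benjamini-Hochberg adjusted p over the 6 pairs was 0.00306, 0.00306 and 0.00586 for r and 0.00066, 0.00538 and 0.00538 for rho. These tests shuffled mice across conditions, so differences between conditions enter the p. Without the 2 mice farthest from the median of the first gene, r was 0.825, 0.651 and 0.611. After the mean of each condition was subtracted, r was 0.509, 0.724 and 0.520, and these values were not tested. Of 14814 other tested genes with a mean of at least 1 CPM, 16.3% had an r over 0.8 with Onecut1. The share was 4.58% with Lhx1 and 2.42% with Onecut2. Mouse 4 was the lowest of the 12 for all 3 factors, and mouse 9 was the highest for Lhx1 and Onecut2.

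Calb1 had an r of 0.201 with Lhx1, -0.232 with Onecut1 and 0.0110 with Onecut2 over the same mice (rho 0.00699, -0.336 and -0.196), with adjusted permutation p of 0.632, 0.632 and 0.974 for r and 0.991, 0.432 and 0.653 for rho. Mouse 4, which had the lowest levels of the 3 factors, had the second highest level of Calb1. With the 2 mice farthest from the median left out, r was 0.596 with Lhx1, 0.0138 with Onecut1 and 0.0528 with Onecut2.

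Among the 14814 tested genes with a mean of at least 1 CPM, the genes most like each member over 12 mice were named by Pearson's r of log2 CPM. For Lhx1 they were Jph4 (0.953), Sema6a (0.941) and Onecut3 (0.940). For Onecut1 they included Gsk3b (0.992) and Ncoa1 (0.991), and for Onecut2 they were C530008M17Rik (0.960), Nyap1 (0.926) and Kcna2 (0.922). Those of Calb1 were Rnf227 (0.960), Abhd12 (0.945) and St6galnac6 (0.940). An r over 0.8 was shared with Onecut1 by 2411 genes (16.3%), with Lhx1 by 679 (4.58%), with Onecut2 by 358 (2.42%) and with Calb1 by 185 (1.25%), so the pattern of Onecut1 was the commonest of the 4 among these libraries.

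The level of Calb1 moved with a property of the libraries, the share of reads that fell on no annotated gene, which ranged from 6.53% to 13.7%. Over 12 mice, r between that share and log2 CPM of Calb1 was -0.788 (rho -0.734, adjusted permutation p = 0.0231 for r and 0.0336 for rho over 8 relations). It was -0.787 without the 2 mice farthest from the median share, and -0.859 after the mean of each condition was subtracted. P34 mouse 7, with the highest Calb1 level, had the lowest share, and P34 mouse 8, with 100.9 CPM of Calb1, had the highest. The share of reads without a unique position also moved with Calb1 (r = 0.732, rho 0.790, adjusted permutation p = 0.0404 and 0.0281, and r = 0.395 without mice 4 and 7). The r of Lhx1, Onecut1 and Onecut2 with the share on no gene was -0.119, 0.131 and 0.0218 (rho 0.0210, 0.0280 and 0.0490), with adjusted permutation p of 0.810, 0.810 and 0.947 for r and 0.956 for each rho. Without mice 7 and 10, the farthest from the median share, r was 0.319, 0.573 and 0.193, and after the mean of each condition was subtracted it was -0.0286, 0.378 and 0.213. With the share without a unique position their r was -0.434, -0.648 and -0.484 (rho -0.385, -0.476 and -0.476), with adjusted permutation p of 0.259, 0.0687 and 0.214 for r and 0.350, 0.247 and 0.247 for rho. Without mice 4 and 7 those r were -0.434, -0.401 and -0.519. After the mean of each condition was subtracted, r with that share was -0.739 for Onecut1, -0.386 for Lhx1, -0.462 for Onecut2 and 0.832 for Calb1. How many other genes moved as closely with these shares was not computed. The part of these shares in the levels was not tested.

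Other cells of the whole retina use several of these genes. The summed level of 8 ganglion cell genes was 875 to 1173 CPM at P30, 934 to 1082 at P32, 1125 to 1584 at P34 and 1182 to 1423 at P38, with 0 genes at a count of 0 in any mouse and 0 called in edgeR. Their median log2 fold change relative to P30 was -0.03 in P32, 0.45 in P34 and 0.28 in P38 mice. One of these genes, Nefl, is also on the horizontal cell list and had a mean of 479 CPM at P30, a large part of the sum. The 10 amacrine genes, of which 7 are also on the horizontal cell list, summed to 1730 to 1814 CPM at P30, 1811 to 1910 at P32, 1788 to 2250 at P34 and 1538 to 1834 at P38. Their median log2 fold change was 0.04, 0.21 and -0.05 at these cKO ages, with 0 called in edgeR. At P34, 3 of 5 genes of ciliary body and iris and all 4 of smooth muscle were called lower than at P30. Lens genes summed to 532 to 39457 CPM at P30, 749 to 45771 at P32, 280 to 765 at P34 and 5320 to 13674 at P38. The part of these other cells in the levels of the members was not tested.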

How the data were processed

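Whole retinas of 12 mice were analyzed, with 1 stranded mRNA library per mouse and 50 bp single reads. The authors mapped reads to mm10 with STAR 2.5.3a after bcl2fastq 2.17.1.14 and counted them per Ensembl gene with HTSeq 0.6.1p1 in union mode (versions as in the submitters' processing notes and the paper's methods). The deposited values are whole-number counts per gene without normalization. The strand option of the counting is not given in the sources used here. Reads with no unique position (23.7 to 32.2%), on no gene (6.53 to 13.7%) or ambiguous (0.646 to 0.696%) stayed out of totals and tests.

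Symbols, positions and exon lengths came from GENCODE M21, which named 54079 identifiers (99.9%). Counts were filtered by filterByExpr, scaled by TMM and fitted with edgeR 4.0.16 in R 4.3.3, with all 12 libraries and 4 condition means. The 9 cKO mice against P30 had a fit of their own. Benjamini-Hochberg adjustment ran over the 18628 genes tested. The procedure was tested on simulated counts. Log2 CPM used a prior count of 2, and correlations 100000 permutations that shuffled mice across conditions. DESeq2 1.42.0, other scalings, other filters and leaving out each mouse were the alternatives. DESeq2 was run on all 12 mice only.

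The members and lists were chosen with earlier results of these data known. Named genes were the 4 members, genes of the wider list with an unadjusted p of at most 0.05 against P30, and the 3 genes most like each member, of which 1 is not reported here. The other genes named between P34 or P38 and P32, and the relations with library shares, were chosen after their values were seen. Members of a condition were separate mice. No libraries of a condition held the same counts (chi-square per degree of freedom 19.7 to 254).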

Additional observations from a re-analysis of the deposited data

How the results depend on the processing

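Of 532 alternative values for 28 fold changes of the members, 521 kept their direction and their side of the threshold. DESeq2's test called 2 members between P34 and P32, Onecut1 (log2 fold change 1.53) and Onecut2 (0.56), beside 8.65% of genes. Between P38 and P32 it called 1, Onecut1 (1.79), beside 6.05% of genes. In both comparisons edgeR called 0 members. The cause was not tested. With each mouse left out, the number called ranged from 0 to 2 between P34 and P32 and from 0 to 1 between P38 and P32. The calls came without mouse 6, where 14.3% and 10.2% of all genes were called, within ranges of 0.37 to 0.70 for Lhx1 and 1.12 to 2.22 for Onecut1 between P34 and P32, and of 1.38 to 2.48 for Onecut1 between P38 and P32. The sign turned for 4 small values, with ranges of -0.064 to 0.28 for Calb1 between P34 and P32, -0.083 to 0.0049 for Calb1 between P38 and P30, -0.27 to 0.053 for Lhx1 between P32 and P30, and -0.25 to 0.079 for Onecut2 between P38 and P34. No paired analysis was possible because no replicate number is shared between conditions. With 3 mice per condition and 4 to 68 counts, the fold changes of Onecut1 had SEs of 0.42 to 0.46 between conditions. The counts of the wider list without mouse 1 or mouse 4 were added after the data had been seen.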

Other observations

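Cell groups that the comparisons above did not use also held values for the same mice. The 7 genes of the retinal pigment epithelium and its melanosomes summed to 74.1 to 437 CPM at P30, 32.3 to 86.8 CPM at P32, 40.9 to 57.2 CPM at P34 and 33.3 to 96.0 CPM at P38, and edgeR called 2 of them lower at P34. The 5 rod genes summed to 59319 to 65477 CPM at P30, 53985 to 58731 CPM at P32, 67322 to 90451 CPM at P34 and 65922 to 99717 CPM at P38, with 0 called in edgeR. Their median log2 fold change relative to P30 was -0.08 in P32, 0.13 in P34 and 0.34 in P38 mice. The 4 microglial genes summed to 14.1 to 14.9 CPM at P30, 14.3 to 14.9 CPM at P32, 13.4 to 19.4 CPM at P34 and 15.0 to 18.8 CPM at P38, with 0 called in edgeR.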
